A study of Mus musculus with 2 samples.

Results

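Antioxidant and glutathione genes were followed in AgRP neurons, hypothalamic neurons that promote feeding through agouti-related peptide and neuropeptide Y. The set held every gene whose symbol names a superoxide dismutase, catalase, glutathione peroxidase, peroxiredoxin, thioredoxin or its reductase, glutaredoxin, glutathione S-transferase, metallothionein or one of a few related enzymes. Symbols were matched to probe sets that carry 1 gene symbol in the platform annotation. This gave 62 genes with 701 probe sets, of 22296 named genes and 1235936 probe sets on the array. Neurons had been collected by fluorescence-activated cell sorting (FACS) from mice labelled FoxO1 KO and from mice labelled FoxO1 heterozygous KO, which serve as the control. Both groups had a mixed genetic background and lacked at least 1 working FoxO1 allele, so no wild-type sample enters the comparison. The sources used here do not give age, sex, the driver of the deletion, the sorting reporter or how many mice stand behind an array. There was 1 exon-level microarray per genotype, so the values are described without any test.

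Cells remove superoxide with superoxide dismutases, and the hydrogen peroxide that forms is broken down by catalase, glutathione peroxidases and peroxiredoxins. Glutathione and thioredoxin supply the electrons, and NADPH-dependent reductases restore both. FoxO factors are known to raise Sod2 and Cat in several cell types, and NRF2, encoded by Nfe2l2, drives many of the other genes. The comparison therefore asks how this system differs in AgRP neurons when the remaining FoxO1 allele is lost.

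Of the 62 genes, 58 were evaluated, which required at least 3 probe sets whose mean over both arrays reached a floor of 5.86 on the log2 scale. Gpx8, Gsta2, Gstp1 and Mgst1 were not: 2 of the 6 probe sets of Gpx8, 0 of 1 for Gsta2, 2 of 2 for Gstp1 and 2 of 7 for Mgst1 reached the floor. Values are log2 RMA signals. A gene's difference is the median over its probe sets of KO minus heterozygous KO, and its level on an array is the median of those probe sets there. The SD given with a difference is over probe sets of this 1 pair of arrays, not over mice. Because the medians are taken separately, level gap and difference have opposite signs in 15 of the 58 genes.

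No antioxidant or glutathione gene differed by 2-fold between the arrays. Of the 58 genes, 0 were higher by 2-fold or more on the KO array with at least 75% of their probe sets agreeing, against 1.13% of 16639 evaluated genes, and 0 were lower by as much, against 1.12%. The differences ran from -0.81 (Gsto2) to 0.70 (Mt2). At a 1.5-fold limit Mt2 alone was higher (1 of 58, against 3.28% of all genes), while Glrx, Gpx6 and Gsto2 were lower (3 of 58, or 5.17%, against 4.90%). The value of Mt2 includes a probe set under the floor on the heterozygous array, and with the floor met on each array separately Mt2 stood at 0.44 over 4 probe sets, under 1.5-fold. The share of 1.72% on the higher side and that on the lower side are not set apart from the background.

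The typical size of a difference was also that of other genes, with a median size of 0.23 for these genes and 0.22 for all genes evaluated. The direction was more balanced. The median difference was -0.02 (quartiles -0.22 and 0.26), against -0.11 (quartiles -0.29 and 0.09) over all genes. Above 0 lay 28 of the 58 genes, or 48.3%, against 34.8% of all genes. Against the median of the 16639 evaluated genes, -0.11, 36 of the 58 genes lay above. Gss, Gstp2, Gstt1, Gstt2, Mt1, Prdx5, Sod2 and Txnrd2 lay between -0.11 and 0, so they turn positive when the arrays are centred on the median gene.

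**Figure D1:**
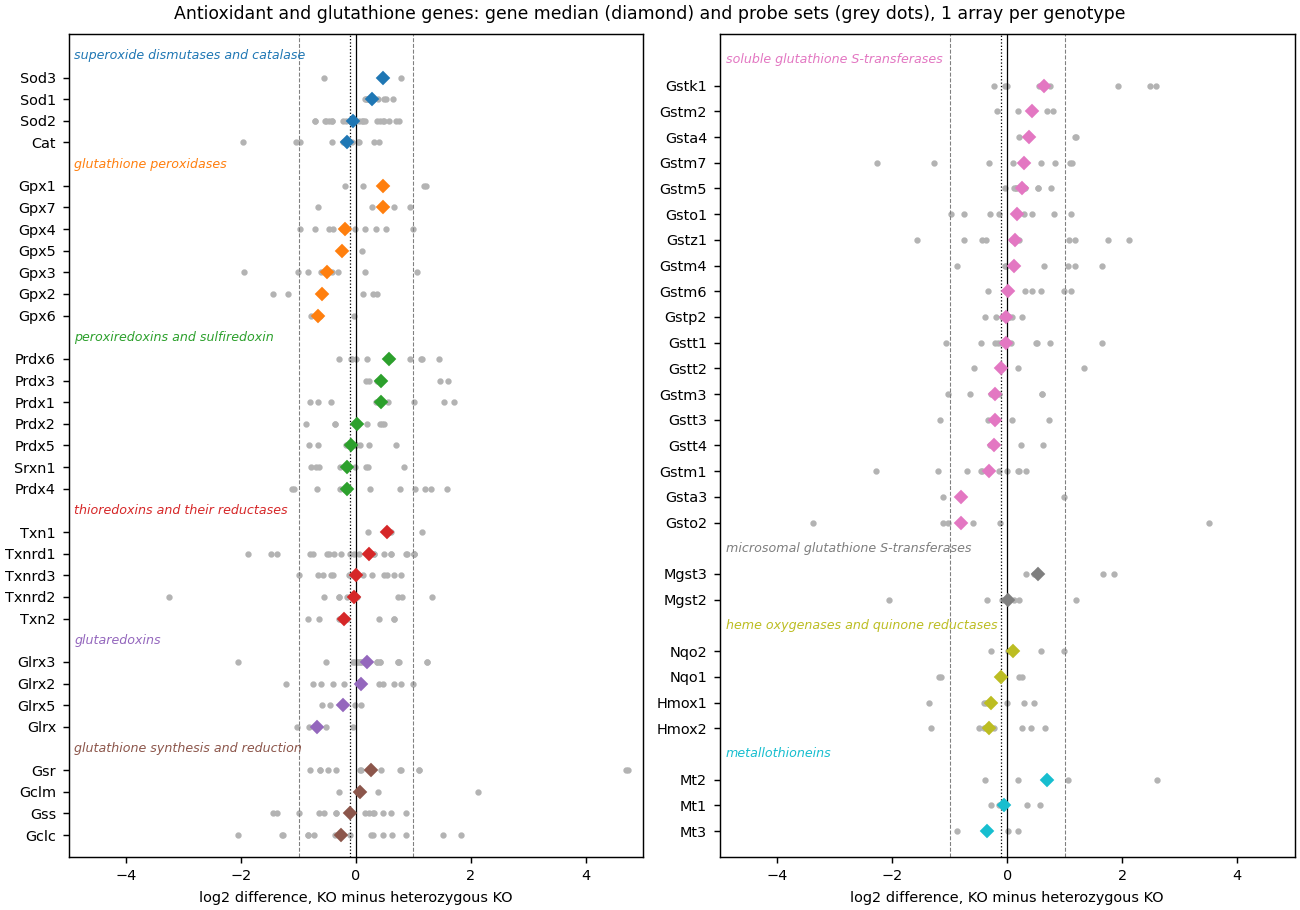
Log2 difference between the KO and the heterozygous KO array (x axis) for the 58 evaluated genes by role, with the gene median as a diamond and each probe set as a grey dot. Dashed lines mark 2-fold, the dotted line the median of all genes at -0.11; the diamonds stay between -0.81 and 0.70 while single probe sets reach from -3.37 to 4.73.

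Single probe sets varied far more than gene medians. Of 520 probe sets of these genes above the floor, 53 were higher by 2-fold or more on the KO array (10.2%, against 9.24% of all named probe sets) and 37 lower by as much (7.12%, against 11.0%). They were spread over many genes: 26 genes held a 2-fold higher probe set, 23 a 2-fold lower one and 11 both. The same counts were not made over all genes. In 51 of the 58 genes the difference was smaller than its SD over probe sets. This is common, since over all evaluated genes the median size was 0.22 and the median SD 0.68. The 7 exceptions were Sod1, Txn1, Prdx6 and Gstm5 on the higher side and Glrx, Gpx6 and Gpx5 on the lower side. With the trend of difference on level removed, Sod1 (0.05) and Gstm5 (0.16) fell under their SD. Gpx5 did so when centred (-0.13). Txn1, Prdx6, Glrx and Gpx6 stayed beyond theirs in both settings. Prdx6 fell under its SD of 0.57 by the mean over probe sets (0.52), without a floor (0.56) and with the floor met on each array separately (0.56).

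Superoxide dismutases and catalase stand at the head of the pathway. Sod1, the copper-zinc enzyme of the cytosol, was slightly higher on the KO array. Its level was 12.8 there against 12.3 on the heterozygous array, a difference of 0.28 (SD 0.15) or 1.21-fold. All 12 probe sets were higher, from 0.15 (13.6 against 13.4) to 0.64 (12.3 against 11.7). The size of this difference and the direction of its lowest probe set depend on scaling, since removal of the trend of difference on level left a median of 0.05.

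Sod2, the manganese enzyme of mitochondria and a textbook FoxO target, showed no common direction. Its 24 probe sets split into 11 higher and 13 lower, with a median of -0.06 (SD 0.44) and levels of 8.56 against 8.88. They ran from -0.71 (8.25 against 8.97) to 0.74 (7.98 against 7.23), and the brightest differed by -0.08 (10.9 against 11.0). Cat, which encodes catalase of the peroxisome and is also a textbook FoxO target, stood at -0.16 (SD 0.67), with levels of 7.65 and 7.90. Of its 12 probe sets 8 were lower, and the lowest value was -1.96 (7.41 against 9.37). The 3 brightest Cat probe sets were at 0.31 (11.4 against 11.0), 0.04 (11.2 against 11.2) and 0.05 (10.5 against 10.4). The next brightest was lower, at -0.14 (10.2 against 10.4). Under the stricter floor of the 75th percentile Cat stood at -0.01, against -0.35 by the mean over probe sets. Both targets were thus within their own probe set spread. Sod3, the extracellular enzyme, rested on 3 probe sets with a median of 0.47 (SD 0.70, 2 higher), and stood at 0.14 over all 7 of its probe sets.

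Glutathione peroxidases use glutathione to reduce peroxides and went both ways. Of 7 evaluated genes 5 were below 0, with a median of -0.24. Over all evaluated genes 65.2% were below 0 and the median was -0.11, so this count is close to the background. Gpx1, the main cytosolic form, was higher in 4 of 5 probe sets. These read 11.4 against 10.2 (1.21), 11.6 against 10.4 (1.19), 9.75 against 9.27 (0.47), 8.89 against 8.77 (0.12) and 9.46 against 9.64 (-0.19). The gene difference of 0.47 (SD 0.63) is that of the middle probe set, and the 2 brightest differed by more.

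Gpx3, the secreted plasma form, was lower in 8 of 10 probe sets, with levels of 9.11 against 10.02 and a difference of -0.51 (SD 0.78). Its probe sets ran from -1.95 (8.18 against 10.1) to 1.07 (8.09 against 7.02). Gpx4, the phospholipid hydroperoxide peroxidase that protects cells from ferroptosis, was near the median of all genes at -0.20 (SD 0.52, 9 of 13 probe sets lower, levels 9.64 and 9.65). Gpx7, an enzyme of the endoplasmic reticulum, stood at 0.47 (SD 0.70, 3 of 4 higher) and at 0.08 over all 6 of its probe sets.

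Gpx2, Gpx5 and Gpx6 are family members best known from the gut epithelium, the epididymis and the olfactory epithelium. Gpx6 was lower in each of 4 probe sets, at -0.79, -0.70, -0.62 and -0.04, with levels of 6.49 against 6.84. Gpx2 stood at -0.59 (4 of 7 probe sets lower) and at 0.11 over the 5 that pass that stricter floor. Those 5 were at -1.45, -0.62, 0.11, 0.30 and 0.36, so they disagree and its direction is not settled. Gpx5 stood at -0.24 over 3 probe sets.

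Peroxiredoxins, thiol peroxidases that are recharged by thioredoxin, included several of the genes that were higher. Prdx6, which uses glutathione and also has phospholipase activity, was at 0.58 (SD 0.57, 9 of 12 probe sets higher), with levels of 8.23 against 7.89. Prdx3, the mitochondrial form, was higher in all 7 probe sets, from 0.17 (6.89 against 6.72) to 1.60 (9.79 against 8.19), with a median of 0.43 (SD 0.60). Prdx1, a cytosolic form, was also at 0.43, but its 9 probe sets disagreed (6 higher, SD 0.92, range -0.81 to 1.71).

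The rest of this group lay between -0.16 and 0.03. Prdx2, the cytosolic form abundant in neurons and red cells, stood at 0.03 (SD 0.41, 7 of 11 probe sets higher). Prdx5 was at -0.09 (SD 0.40) and Prdx4, the form of the endoplasmic reticulum, at -0.16 (SD 0.88). Srxn1, the sulfiredoxin that restores overoxidised peroxiredoxins, was at -0.16 (SD 0.49, 7 of 10 probe sets lower).

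Thioredoxins reduce peroxiredoxins and are themselves reduced by thioredoxin reductases. Txn1, the cytosolic thioredoxin, was higher in all 7 probe sets. The lowest was 0.20 (12.6 against 12.4), the median 0.55 (11.4 against 10.8) and the highest 1.15 (8.64 against 7.49), with an SD of 0.28. With the trend on level removed Txn1 stood at 0.44. Its mitochondrial counterpart Txn2 was at -0.20 (SD 0.49, 8 of 11 lower), near the median of all genes at -0.11. A difference between compartments was not tested, and the mitochondrial Prdx3 was higher, at 0.43. Among the reductases, Txnrd1 of the cytosol was at 0.22 (SD 0.80, 14 of 25 probe sets higher), but at -0.01 by the mean over probe sets. Txnrd2 of mitochondria was at -0.04 (7 of 11 lower) and Txnrd3, known from testis, at 0.00 (6 of 12 higher).

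Runs of 1 direction were set beside their frequency among all genes. Every probe set was higher in 5 of the 58 genes, Sod1, Txn1, Prdx3, Mgst3 and Gsta4, or 8.62%, against 2.46% of all evaluated genes. Every probe set was lower in Glrx and Gpx6, or 3.45%, against 5.15%. Long runs are rarer, so genes with at least 7 probe sets were also taken alone, a minimum chosen after the values were seen. Among these, 3 of 35 genes (Sod1, Txn1 and Prdx3) were higher in every probe set, against 1.04% of all such genes, and 0 of 35 were lower in every one, against 1.5%. Such a run is an agreement in sign only, among probe sets that share their RNA and are not replicates, and in Prdx3, Mgst3 and Gsta4 the SD over probe sets was larger than the difference. The run of Sod1 also depends on scaling. Removal of the trend of difference on level moved its median from 0.28 to 0.05, a shift larger than its lowest value of 0.15. For Txn1 the shift, from 0.55 to 0.44, was smaller than its lowest value of 0.20.

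**Figure D2:**
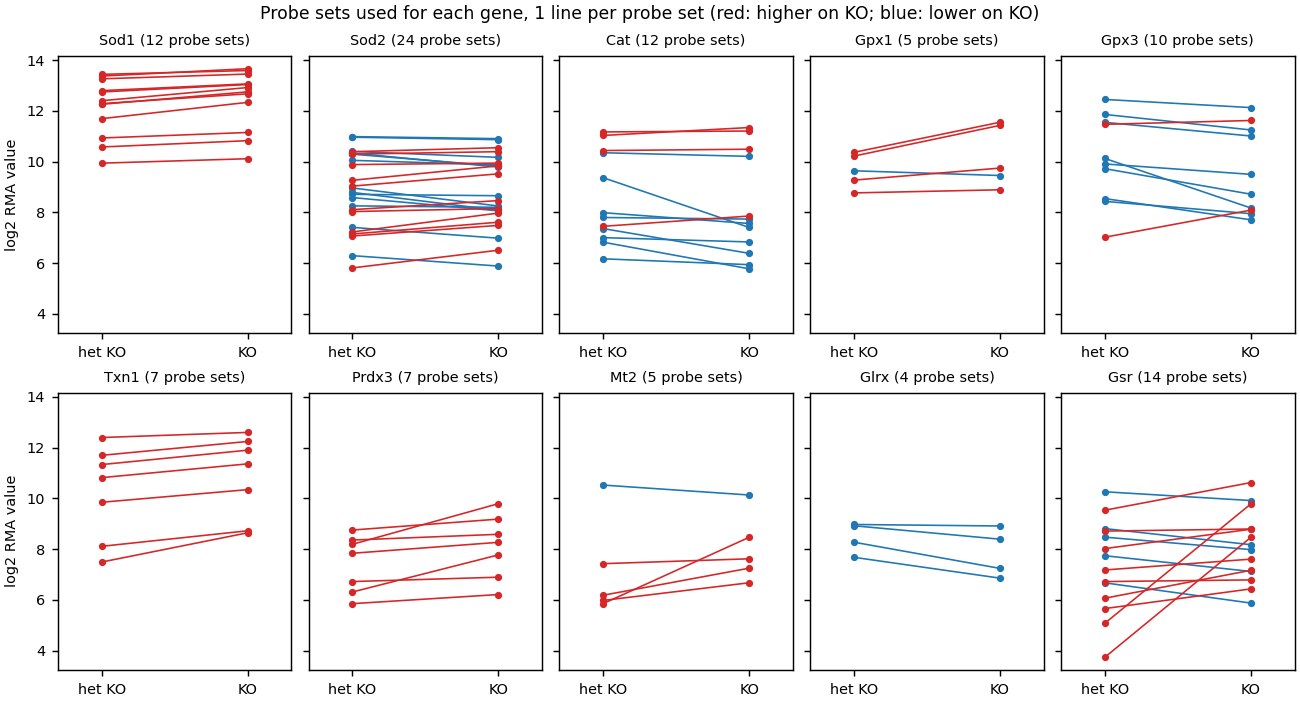
Log2 RMA value of each probe set (y axis) on the heterozygous KO and the KO array for 10 genes, with 1 line per probe set. All lines rise for Sod1 and Txn1, by unequal amounts, while lines cross for Sod2 and Cat, and for Gsr 2 steep lines start at 5.07 and 3.73.

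Glutaredoxins reduce proteins that carry bound glutathione. Glrx, the cytosolic form, was the lowest of them and lower in each of 4 probe sets. These read 7.24 against 8.27 (-1.03), 6.85 against 7.67 (-0.82), 8.39 against 8.92 (-0.53) and 8.91 against 8.97 (-0.06), so the brightest hardly differed. The gene difference was -0.67 (SD 0.42), or 1.60-fold lower. Glrx5, a mitochondrial iron-sulfur cluster factor, was at -0.23 (SD 0.33), Glrx2 at 0.09 (SD 0.75) and Glrx3 at 0.19 (SD 0.69, 16 of 20 probe sets higher).

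Genes of glutathione synthesis and reduction had no shared direction. Gclc, the catalytic subunit of glutamate-cysteine ligase, which makes the first and limiting step, was at -0.26 (SD 1.02, 10 of 17 probe sets lower), although its levels of 8.13 and 7.43 point the other way. Under the stricter floor it stood at 0.28 over 12 probe sets, so its direction is not settled. Gclm, the modifier subunit, was at 0.07 (SD 0.96), or 0.46 by the mean over its 5 probe sets, and Gss, glutathione synthetase, at -0.10 (SD 0.71).

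Gsr, the reductase that regenerates glutathione, had the widest spread of this group. Its median was 0.25 (SD 1.79, 9 of 14 probe sets higher). A pair of probe sets stood far above the rest, at 4.73 (8.46 against 3.73) and 4.70 (9.78 against 5.07), and 1 more, under the floor, at 3.32 (7.20 against 3.87). The other 12 probe sets used lay between -0.80 and 1.10, and the mean over the 14 was 0.77. All 3 were under the floor on the heterozygous array, and the exons they lie in are not named here.

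Soluble glutathione S-transferases couple glutathione to electrophiles and form the largest family. Of 18 evaluated genes 9 were above 0 and 9 below, with a median of 0.00. Gstm5, a mu-class enzyme of brain and testis, was higher in 9 of 10 probe sets, with levels of 11.1 against 11.0 and a difference of 0.26 (SD 0.24). Gsta4, which clears the lipid peroxidation product 4-hydroxynonenal, was higher in 5 of 5 probe sets at 0.37 (SD 0.49). Gstm1, a mu-class enzyme also abundant in astrocytes, was lower in 8 of 11 at -0.32 (SD 0.76).

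The largest differences of this family rest on dim or discordant probe sets. Gsto2, an omega-class enzyme that reduces dehydroascorbate, was the lowest gene of the whole set at -0.81, but its 6 probe sets ran from -3.37 (5.05 against 8.42) to 3.51 (7.87 against 4.36), and over all 14 of its probe sets it stood at -0.23. Gsta3 was also at -0.81, over 3 probe sets, and at -0.20 over all 9. Gstk1, the mitochondrial and peroxisomal kappa-class enzyme, was at 0.65 (SD 1.16, 5 of 8 higher), with 3 probe sets at 2.59, 2.49 and 1.93 that read 5.30, 5.34 and 5.08 on the heterozygous array. Where the floor had to be met on each array separately, Gstk1 stood at -0.02 over 4 probe sets. By the mean over its 8 probe sets it was at 1.004, past 2-fold, but the agreement of 5 of 8 is under 75%.

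The remaining mu-class genes were Gstm2 at 0.44 (0.13 over all 12 of its probe sets), Gstm7 at 0.30 (0.02 by the mean), Gstm4 at 0.12, Gstm6 at 0.02 and Gstm3 at -0.21. Theta-class genes lay around the median of all genes, with Gstt1 at -0.02, Gstt2 at -0.11, Gstt3 at -0.22 and Gstt4 at -0.23. Gsto1 was at 0.17 and Gstz1, an enzyme of tyrosine breakdown, at 0.14. Gstp2, a pi-class gene, was at -0.02 (SD 0.19, 4 of 8 higher). Some probe sets carry several symbols of these classes, Gstp1 with Gstp2 and Gstm6 with Gstm3. Whether other probe sets of pi-class and mu-class genes also read a related gene was not tested, so single values are uncertain. Gstp1 had 2 probe sets of its own, at -0.45 and -0.09.

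Microsomal transferases sit in the endoplasmic reticulum membrane. Mgst3 was higher in 5 of 5 probe sets above the floor, which read 8.11 against 6.25 (1.86), 7.60 against 5.93 (1.67), 9.12 against 8.58 (0.54), 6.93 against 6.46 (0.46) and 8.02 against 7.70 (0.32). The gene difference was 0.54 (SD 0.73), and the mean over probe sets was 0.97. A sixth probe set, under the floor, was lower (5.17 against 6.15). Mgst2 stood at 0.02 (SD 1.07).

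Heme oxygenases, which break heme down to biliverdin, were both slightly lower. Hmox1, the stress-inducible form and a known NRF2 target, was lower in 5 of 7 probe sets, at -0.29 (SD 0.60). The constitutive Hmox2 was lower in 6 of 9, at -0.31 (SD 0.58). The quinone reductase Nqo1, another known NRF2 target, was at -0.11 (SD 0.72) and Nqo2 at 0.11 (SD 0.50). Nqo2 depends on the floor, at 0.58 over 3 probe sets with the floor met on each array and at 0.02 over all 9.

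Metallothioneins, small cysteine-rich proteins that bind zinc and copper, did not move together. Mt2 was the highest gene of the whole set at 0.70 (SD 1.13), or 1.62-fold. Its probe sets read 8.46 against 5.85 (2.61), 7.25 against 6.18 (1.07), 6.67 against 5.98 (0.70), 7.62 against 7.42 (0.19) and 10.1 against 10.5 (-0.39), so the brightest was lower. Without the first, which is under the floor on the heterozygous array, Mt2 stood at 0.44. Under that same rule it lay below Nqo2 (0.58), Prdx6 (0.56), Txn1 (0.55), Mgst3 (0.54), Gpx1 (0.47) and Gpx7 (0.47). Mt1, usually induced together with Mt2, was at -0.05 (SD 0.35, 2 of 5 higher) and Mt3, the brain form also made by astrocytes, at -0.35 (SD 0.41, 3 of 5 lower).

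Promoters were searched for 3 short motifs in RefSeq windows of the GRCm38.p6 assembly, from 250 bases before to 50 after a gene start. Of the 62 genes 55 had a window. The core of the antioxidant response element, to which NRF2 binds (TGACNNNGC or its reverse GCNNNGTCA, both strands searched), was in 10 of the 55 genes, or 18.2%, against 13.99% of all 27025 genes with a window. It was in 10 of 76 windows (13.2%), against 12.4% of all 32851. Of the 10 genes 9 were evaluated, and 7 of these lay above 0 with a median of 0.26, while 17 of the 42 evaluated genes without it (40.5%) lay above 0 with a median of -0.06. Over all evaluated genes with a window under the same symbol, 34.0% of the 1822 with the core and 34.6% of the 9306 without it lay above 0, with medians of -0.10 and -0.11. Genes with the core included Mt2, Prdx1, Gstm7, Sod1, Gstm5, Txnrd1 and Gclm above 0, and Srxn1 and Gsta3 below, although by the mean over its probe sets Txnrd1 stood at -0.01. The match is one of letters, no binding was measured, and no test was made. The sequences below show the core in capitals in 4 genes above 0 and in Gsta3, the lowest gene with a match, each on the strand of its gene.
Mt2, chr8:94172519-94172567, + strand: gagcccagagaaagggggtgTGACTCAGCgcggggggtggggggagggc
Prdx1, chr4:116685446-116685494, + strand: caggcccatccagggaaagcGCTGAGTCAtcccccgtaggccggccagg
Txnrd1, chr10:82859094-82859142, + strand: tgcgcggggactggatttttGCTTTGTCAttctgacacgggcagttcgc
Sod1, chr16:90220686-90220734, + strand: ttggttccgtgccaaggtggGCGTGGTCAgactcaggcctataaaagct
Gsta3, chr1:21240444-21240492, + strand: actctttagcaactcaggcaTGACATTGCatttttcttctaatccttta

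The cores of Mt2 and Prdx1 are the same letters read on opposite strands, and the Gsta3 core shares only the fixed letters with them. Mt2 at 0.70 and Prdx1 at 0.43 were higher on the KO array, and Gsta3 at -0.81 was lower. With the floor met on each array Mt2 fell to 0.44, and without a floor Gsta3 rose to -0.20. The Prdx1 levels, 9.62 on the KO array against 9.89, point the other way from its difference. Only these genes were compared by the letters of their core. Whether those letters go with direction was not tested. The metal response element core (TGCNCNC, both strands), bound by the zinc sensor encoded by Mtf1, is too common to separate genes, in 31 of 55 (56.4%) against 53.6% of all genes. The forkhead core TGTTTAC was in 1 of 55 genes, Glrx2, against 4.05% of all genes. Glrx2, whose difference was 0.09, carries it on the opposite strand, in capitals here.
Glrx2, chr1:143739291-143739337, + strand: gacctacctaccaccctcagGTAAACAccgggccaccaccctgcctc

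Partners of the system were given by a list of 55 genes for its regulators, cystine uptake, glutathione breakdown and NADPH supply, of which 52 were evaluated. None was at least 2-fold higher or lower, against the 1.13% and 1.12% above. Of the 52 genes 36 were below 0, or 69.2%, against 65.2% of all genes, with a median of -0.22 against -0.11. At a 1.5-fold limit 2 were higher (3.85%, against 3.28%) and 6 lower (11.5%, against 4.90%). The lowest was Pgd, an NADPH-forming enzyme of the pentose phosphate pathway, at -0.94 (SD 0.70), with levels of 7.38 against 8.77 and 13 of 15 probe sets lower. Slc7a11, the cystine carrier that feeds glutathione synthesis, was lower in 8 of 8 probe sets at -0.76 (SD 1.04), and Bach1, a repressor of NRF2 target genes, in 9 of 9 at -0.73 (SD 0.45).

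The highest partners were Glo1, the glutathione-dependent glyoxalase, at 0.66 (SD 0.90, 9 of 12 higher), Park7, the redox-sensitive protein DJ-1, at 0.65 (SD 0.40, 8 of 9 higher, levels 10.9 against 9.91) and Oxr1, an oxidation resistance protein, at 0.57 (SD 0.72, 17 of 24 higher). Nfe2l2 itself stood at -0.20 (6 of 8 probe sets lower) and its inhibitor Keap1 at -0.30 (5 of 9 lower).

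**Figure D3:**
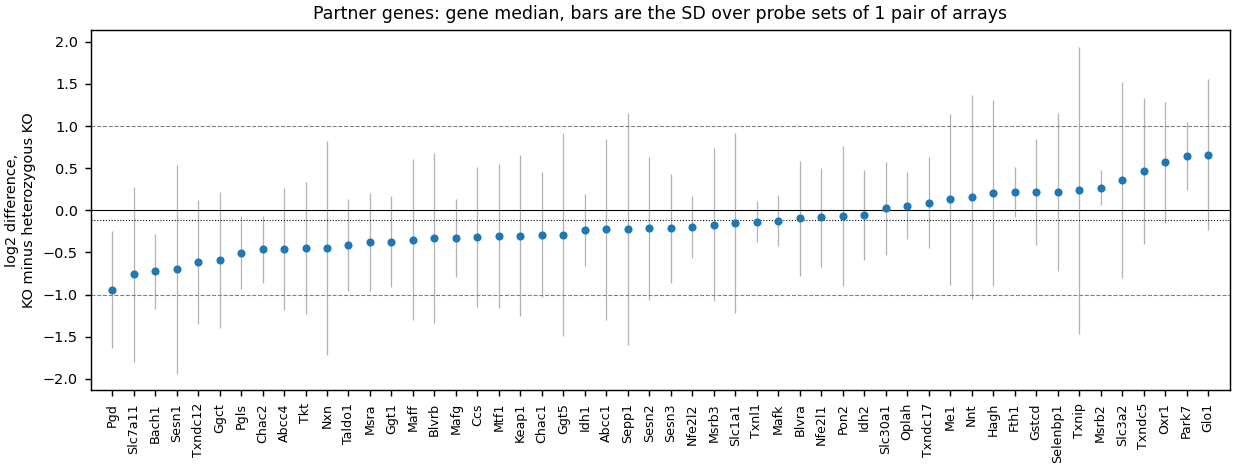
Log2 difference (y axis) of the 52 evaluated partner genes in order of difference, with the SD over probe sets as bars; the dotted line is the median of all genes. Points run from Pgd at -0.94 to Glo1 at 0.66, and 36 lie below 0.

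Checks on the 2 samples as a whole gave the following values. Foxo1 itself was at -0.48 (8 of 8 probe sets lower, SD 0.53), and Gpr17, named in the study's title, at -2.10 (SD 1.48, 4 of 5 lower). Agrp read 12.4 and 12.0 and Npy 12.2 and 12.3 on the KO and heterozygous arrays, so both were bright on each array. Over the list of 12 AgRP neuron genes, 8 were above 0 with a median of 0.20, while Ghsr stood at -0.60 and Slc32a1 at -0.40; over all genes 34.8% were above 0 and the median was -0.11, which applies to each marker list here. Oligodendrocyte markers were lower in 11 of 11 evaluated genes, with median levels of 6.97 on the KO array against 8.86 and a median difference of -1.02. Precursor markers were lower in 12 of 12 (6.84 against 7.80, median difference -0.53). Astrocyte markers were lower in 7 of 10 (7.47 against 7.34, median difference -0.20), tanycyte and ependymal markers in 7 of 10 (-0.17), microglial markers in 6 of 8 (-0.12) and vessel markers in 8 of 8 (-0.25). Erythroid markers were higher in 2 of 3 (0.32). Glia express many genes described here, among them Gstm1, Mt3 and Gpx1, and the part of other cell types in their values was not tested. In such samples fewer cells of a type and less RNA per cell cannot be told apart.

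**Figure D4:**
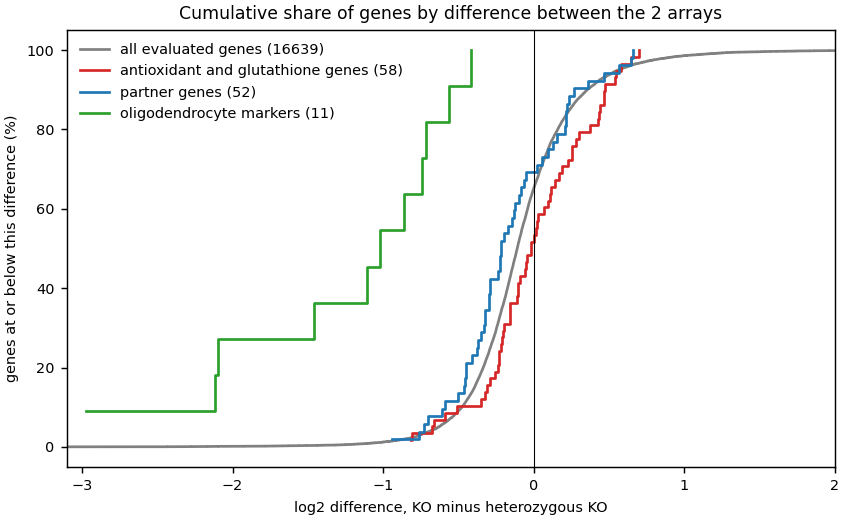
Cumulative share of genes (y axis, percent) by log2 difference (x axis) for all 16639 evaluated genes, the 58 antioxidant and glutathione genes, 52 partner genes and 11 oligodendrocyte markers. At 0 the antioxidant curve stands at 51.7% and the curve of all genes lies above it, while the oligodendrocyte curve lies wholly left of 0.

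Signal level moved with the difference over all genes. Among the 4160 genes with the highest level the median was -0.05 (43.5% above 0), against -0.11, -0.12 and -0.13 in 3 groups of that size below them, from the lowest level up. Of the 58 genes 21 were in that top group, with a median of -0.05, the value of all genes there. In the lower groups their medians were -0.04 over 13 genes, 0.14 over 11 and -0.16 over 13. The genes are also compact: 25 of 58 were among the 4150 genes of shortest genomic span, where their median was -0.09 against -0.10 for all genes.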

How the data were processed

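RNA of sorted AgRP neurons was measured on 1 array for FoxO1 KO and 1 for FoxO1 heterozygous KO, grouped by the genotype label. The deposited log2 values were made by the authors with RMA and Partek, per the submitters' processing notes, with no versions; the scale was taken from the values (medians 5.85 on both arrays). RMA as usually run gives arrays 1 distribution, which hides any change in total RNA. The sources used here give no build or annotation release.

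Of 1235936 probe sets, 318760 had 1 symbol and 215976 of these reached the floor, the median of the mean over both arrays (5.86). A probe set can reach it through 1 bright array. Genes needed 3 such probe sets. The called genes were those past 2-fold with 75% agreement. Members and lists were chosen with earlier results of these data known. All members are accounted for; Sod2, Cat and Gpx1, and the 3 highest and lowest partners, were named by rule, other probe sets after their values were seen. Of the planned descriptions, gene span from RefSeq (GRCm38.p6, 16599 genes matched) replaced protein length. The summary was tested on simulated data with changes larger than the difference of any antioxidant or glutathione gene. That test does not cover differences of the size described here. The number of arrays limits precision. Python 3.11.15, numpy 2.4.6, pandas 2.3.3, statsmodels 0.14.6 and matplotlib 3.10.9 were used.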

Additional observations from a re-analysis of the deposited data

How the results depend on the processing

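The counts of 0 genes past 2-fold in either direction held without a floor, under the stricter floor (75th percentile), a floor on each array, averaging of probe sets, a minimum of 5 or of 1 probe set, centring, trend removal, added probe sets of several symbols and no rule on agreement. By the mean over probe sets Gstk1 was at 1.004, past 2-fold, and was not counted because 5 of its 8 probe sets agreed, under 75%. A 1.5-fold limit gave 1 higher and 3 lower. The median over genes ran from -0.02 to 0.09, the highest when centred, so its sign is not settled. Of the 58 genes, 38 kept their sign in every alternative that evaluated them, 21 higher and 17 lower, and 39 of 494 gene values changed sign. Of 17 genes with a difference of at least 0.4 in size, 15 kept it; Gpx2 and Gstk1 did not. Values moved beyond the SD over probe sets in 2 cases, Mt1 at 0.34 under the stricter floor and Sod1 at 0.05 with the trend removed. These counts overstate stability. A minimum of 5 or of 1 probe set changes which genes are evaluated but not their values. Added probe sets of several symbols changed only Gstp2 and Gstz1, so many of the 494 values were fixed in advance. A minimum of 5 or no rule on agreement could not raise the counts of 0, since no gene median reached 2-fold. No paired analysis was possible because each genotype has 1 array.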

Other observations

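Probe sets that carry several symbols were left out of the gene values and are given here. Gstp1 and Gstp2 share 6, which read 12.4 on the KO array against 12.3, 10.9 against 11.3, 10.1 against 9.95, 9.18 against 9.25, 6.26 against 5.93 and 6.29 against 5.80. Their differences ran from -0.41 to 0.49 and 4 of 6 were higher, so this pi-class transferase locus showed no common direction. The probe set shared by Gstz1 and Pomt2 stood at -0.50 and that shared by Gstm6 and Gstm3 at -0.03.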
